A study of Mus musculus with 8 samples.

Results

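The matrix metalloproteases (MMPs), the ADAM and ADAMTS proteases and the tissue inhibitors of metalloproteases (TIMPs) were examined in RNA-seq of mouse outflow tract (OFT) at E11.5. Their genes were taken from the deposited expression table by symbol, as every row whose name starts with Adam, Mmp or Timp and a number, or with Adamts, which also takes the ADAMTS-like genes. The rule used no measured value and found 47 of the 14608 listed genes. The study asked how a *Mib1* V943F allele changes the effect of *Gata6* haploinsufficiency on the heart valves and septa, and the OFT libraries compare compound heterozygous with control embryos. The mutant-labelled group is Mib1V943F/+ Gata6STOP/+, heterozygous for both alleles, with 4 libraries. The control-labelled group also has 4 libraries, and the labels call it only Control, with no allele given. Per the labels each library is a pool of 3 individuals, whereas the study's methods describe 3 pools of 4 pairs of OFT per genotype, so how many embryos stand behind a library is uncertain. Beyond the pools nothing says how the replicates are related. The p-values therefore set a difference between groups against the spread between libraries of a group, not between embryos or litters.

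These families cut proteins outside the cell. MMPs, secreted or held in the membrane, degrade collagens and other matrix proteins. Most ADAMs sit in the membrane and release the outer part of other membrane proteins, among them NOTCH receptors and their ligands, while ADAMTS enzymes act on proteoglycans, procollagens and microfibrils in the matrix. TIMPs bind the active site of MMPs and of some ADAM and ADAMTS enzymes. In the OFT, the cushions that will form the valves are made of matrix rich in versican and hyaluronan, which is cut and replaced as mesenchymal cells fill it. MIB1 is the ubiquitin ligase that lets NOTCH ligands signal, and GATA6 is a transcription factor of the heart.

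Values per library are given in the order of replicates 1 to 4. Levels are CPM, the reads of a gene as a share of the reads of its library, scaled by the authors. The reads behind the listed genes ran from 10669420 (control-labelled replicate 2) to 30469165, so 1 read was worth 0.0325 to 0.0948 CPM. Mean levels of the 47 genes ran from 1.05 CPM to 406 CPM with a median of 25.7. Differences are log2 fold changes, mutant-labelled over control-labelled, on log2(CPM + 0.5), a scale that understates changes of genes with few reads. They were tested with limma over all genes. Exact p-values are two-sided permutation tests of 4 against 4 libraries, for which 0.0286 is the smallest possible value. As a check of the labels, *Gata6* was at 262 ± 18.5 CPM (SD, n = 4) and 249 ± 36.1 CPM (log2 fold change -0.08, SE 0.10, limma adjusted p = 0.752), and *Mib1* at 122 ± 15.6 and 128 ± 6.62 CPM (0.07, adjusted p = 0.746). Neither gene's RNA separated the groups, so every direction below rests on the labels. Whether RNA of the STOP allele is counted is not given in the sources used here, which limits what the *Gata6* level can check. The libraries are whole tissue, in which fewer cells of a type and less RNA per cell cannot be told apart.

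The 8 summed cardiomyocyte markers (*Tnnt2*, *Myh6*, *Ttn* and others) were at 18134 to 21158 CPM (control-labelled) and 14153 to 17015 CPM (mutant-labelled), with 8 of 8 lower at an unadjusted p under 0.05. The 8 endocardial and endothelial markers summed to 852 to 1019.6 CPM and 865 to 953 CPM, the 8 markers of cushion mesenchyme to 1488 to 1670.1 CPM and 1450.5 to 2154 CPM, and the 6 of smooth muscle to 2507 to 2906 CPM and 2669.5 to 3015 CPM. At the same threshold, 2 of the endocardial and endothelial markers were lower, and 1 marker of cushion mesenchyme (*Hapln1*) and 2 of smooth muscle were higher. Over all genes, 5.45% were higher and 6.62% lower. Erythroid genes ranged more, from 1465 to 3055 CPM and from 1239.5 to 4774 CPM. The cardiomyocyte sums differ between the groups in the same direction as *Mmp15* and *Adam11* below. Their part in those differences was not tested.

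None of the 47 genes passed an adjusted p of 0.05 in limma, with 0.0% of all 14608 genes passing. The study compared these genotypes with edgeR and did report differentially expressed genes at that threshold. Its test was not run here, so the absence holds only for limma on CPM. The smallest adjusted p among the 47 was 0.19 (*Mmp15*). At an unadjusted p under 0.05, 5 were higher in the mutant-labelled libraries (*Mmp2*, *Adamts2*, *Adamts3*, *Adamts18* and *Adamtsl1*) against 5.45% of all genes, and 2 were lower (*Mmp15* and *Adam11*) against 6.62% of all genes. As shares of the 47 these are 10.6% and 4.26%. The 4 values of one group all lay above the 4 of the other for 1 gene that was higher (*Mmp11*, 2.13%, against 3.2% of all genes) and 2 that were lower (*Mmp15* and *Adam11*, 4.26%, against 3.9% of all genes). The count of 5 depends on single libraries. It was 9 without mutant-labelled replicate 1, 3 without mutant-labelled replicate 4, 2 without control-labelled replicate 2 or control-labelled replicate 4, and 1 without mutant-labelled replicate 3, while the count of 2 lower genes was the same in all 8 of these fits.

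Most differences were small. The median log2 fold change of the 47 was 0.08, with 33 (70.2%) above 0, beside a median of 0.00 and 50.4% for all genes. The 95% confidence interval included 0 for 40 of the 47 and lay within 0.5 on either side of 0 for 34. The distance from the value to either end of it was 0.25 at the median and ran from 0.14 to 0.76. At this number of libraries, a difference smaller than that distance for its gene does not reach the unadjusted threshold. The adjusted threshold asks for more, as *Mmp15*, at -0.37 with an interval of -0.54 to -0.20, did not pass it. For the 39 genes that neither passed the unadjusted threshold nor had separate groups, the log2 fold change ran from -0.31 to 0.44.

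**Figure D1:**
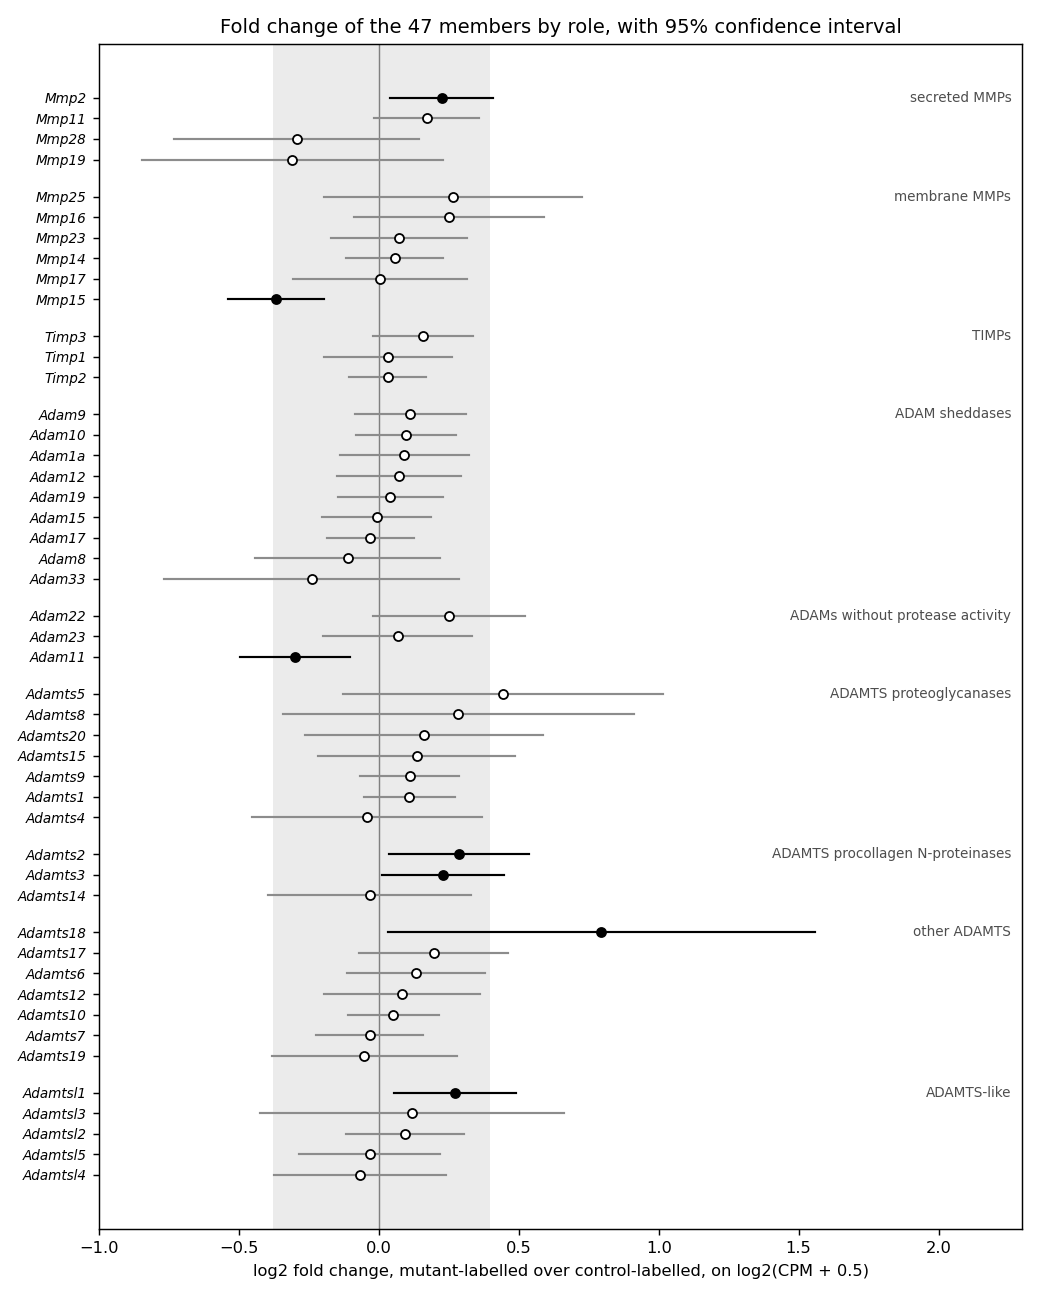
The log2 fold change (mutant-labelled over control-labelled, on log2(CPM + 0.5)) of all 47 genes, ordered by role, with bars for the 95% confidence interval and filled points for an unadjusted limma p under 0.05. The grey band holds the central 95% of all 14608 genes, from -0.38 to 0.40, and only *Adamts5* and *Adamts18* lie beyond it, both with wide intervals.

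Promoter windows from RefSeq, the 250 bases before a start site in GRCm38.p6, were found for 30 of the 47 genes, 33 windows in all. They were searched on both strands for the GATAA form of the GATA motif, with its reverse complement TTATC. Other forms of the GATA motif, such as GATAG, were not searched. The RBPJ motif of NOTCH signalling was searched as GTGGGAA or TTCCCAC. The GATAA form was in 3 windows (9.09%, those of *Adam10*, *Adam19* and *Timp1*), against 22.6% of 32851 windows of all genes. The RBPJ motif was in 1 window (3.03%, *Adamtsl2*), against 5.42% of all windows. A match describes the letters only, and no match says nothing about either factor. The first pair of sequences belongs to the MMPs whose groups did not overlap, and the third to *Adam10*, the protease of the NOTCH receptor, with its motif in capitals. All are written 5′ to 3′ on the strand of the gene. That of *Mmp15* (chr8:95352046-95352267, plus strand) is cut to the 222 bases before its first exon. It holds no match to the searched letters, though it contains GATAG. That of *Mmp11* (chr10:75932503-75932752, minus strand) starts from a RefSeq site 3994 bp inside the annotated 5′ end of the gene and holds no match. That of *Adam10* (chr9:70678732-70678981, plus strand) holds TTATC with its first base at -144, counting back from -1 at the base before the start site.
Mmp15: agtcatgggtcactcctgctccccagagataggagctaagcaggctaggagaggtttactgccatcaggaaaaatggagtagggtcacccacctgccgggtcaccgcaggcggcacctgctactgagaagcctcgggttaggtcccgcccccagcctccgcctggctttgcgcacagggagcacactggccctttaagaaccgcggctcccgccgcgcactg
Mmp11: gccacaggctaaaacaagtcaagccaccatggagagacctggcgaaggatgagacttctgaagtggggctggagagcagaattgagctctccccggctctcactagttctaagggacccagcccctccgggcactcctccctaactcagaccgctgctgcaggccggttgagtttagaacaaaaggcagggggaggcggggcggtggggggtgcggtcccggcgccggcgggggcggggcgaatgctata
Adam10: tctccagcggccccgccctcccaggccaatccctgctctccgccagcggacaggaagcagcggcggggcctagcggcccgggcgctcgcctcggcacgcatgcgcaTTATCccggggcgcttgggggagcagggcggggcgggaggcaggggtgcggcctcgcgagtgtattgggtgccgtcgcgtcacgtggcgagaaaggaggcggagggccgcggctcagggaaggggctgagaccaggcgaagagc

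*Mmp2*, the secreted gelatinase A, had values of 270.3, 302, 319 and 305 CPM in control-labelled replicates 1 to 4, against 314, 404, 351 and 333 CPM in mutant-labelled replicates 1 to 4. Mutant-labelled replicate 2 was the highest of the 8, and the groups overlapped only in that control-labelled replicate 3 lay above mutant-labelled replicate 1. The means were 299 ± 20.6 and 350.4 ± 38.5 CPM, a log2 fold change of 0.22 (SE 0.08, 95% confidence interval 0.04 to 0.41, limma unadjusted p = 0.0208, adjusted p = 0.356, exact permutation p = 0.0571). The unadjusted p was under 0.05 in 7 of the 8 fits that left out a library and 0.0674 without control-labelled replicate 1, where the value was 0.18. *Mmp2* lies on the plus strand of chromosome 8 from 92827291 to 92853420 (GRCm38).

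*Mmp11*, stromelysin-3, which is activated by furin before it leaves the cell, had control-labelled values of 31.3, 36.2, 34.7 and 36.2 CPM and mutant-labelled values of 36.6, 45.0, 37.3 and 37.5 CPM. The groups did not overlap, but the highest control-labelled value and the lowest mutant-labelled value were next to each other, and 1 library, mutant-labelled replicate 2, stood above the other 7. The log2 fold change was 0.17 (SE 0.09, 95% confidence interval -0.02 to 0.36, limma adjusted p = 0.442, exact permutation p = 0.0286), and it was 0.10 without mutant-labelled replicate 2. A share of 5.58% of the exon bases of *Mmp11* lies over exons of *Chchd10* on the other strand, and whether the authors counted by strand is not given in the sources used here.

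The other secreted MMPs in the table, *Mmp19* and *Mmp28*, had log2 fold changes of -0.31 and -0.29, with confidence intervals that included 0. Per kb of exon, *Mmp2* made up most of the secreted MMP RNA, at 88.7 CPM per kb (control-labelled) and 104 CPM per kb (mutant-labelled). *Mmp11* was at 12.5 and 14.1 CPM per kb. All other secreted MMPs of the typed list of 16, among them *Mmp3*, *Mmp9* and *Mmp13*, have no row in the table, which the authors filtered at 1 CPM in 3 samples.

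*Mmp15*, a transmembrane protease also called MT2-MMP and known in endocardial cushions as a target of SNAIL1, had the smallest p-value of the 47. It had values of 299, 330.5, 287 and 268 CPM in control-labelled replicates 1 to 4, against 227, 208, 239.8 and 243 CPM in mutant-labelled replicates 1 to 4. Every mutant-labelled library lay below every control-labelled one, with mutant-labelled replicate 2 the lowest. The means were 296 ± 26.2 and 229 ± 15.8 CPM, a log2 fold change of -0.37 (SE 0.08, 95% confidence interval -0.54 to -0.20, limma unadjusted p = 0.000494, adjusted p = 0.19, exact permutation p = 0.0286). Leaving out 1 library gave -0.41 to -0.31, with an unadjusted p under 0.05 in 8 of 8 fits. The value was -0.25 once the trend with GC content was removed. Over all alternatives the smallest adjusted p was 0.121. *Mmp15* lies on chromosome 8 from 95352268 to 95375080, and its RNA was read by 3485 to 8311 reads per library.

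*Mmp14*, the MT1-MMP that activates pro-MMP2 at the cell surface together with TIMP2, had control-labelled values of 247, 291, 257 and 250.3 CPM and mutant-labelled values of 267, 246, 305 and 271 CPM. The groups overlapped, with mutant-labelled replicate 3 the highest and replicate 2 the lowest of the 8. This gave a log2 fold change of 0.06 (SE 0.08, 95% confidence interval -0.12 to 0.23, limma adjusted p = 0.782, exact permutation p = 0.543). The other 4 membrane MMPs, *Mmp16*, *Mmp17*, *Mmp23* and *Mmp25*, had log2 fold changes of 0.00 to 0.27, all with intervals that included 0. *Mmp15* was thus the 1 of 6 membrane MMPs with a value below 0. Whether its difference differs from that of *Mmp14* was not tested.

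Per kb of exon, *Mmp15* was the most abundant membrane MMP in the control-labelled libraries, at 54.9 CPM per kb beside 43.8 for *Mmp14*. In the mutant-labelled libraries the levels were 42.5 CPM per kb for *Mmp15* and 45.7 for *Mmp14*. *Mmp23* followed with 22.5 and 23.7 CPM per kb. The membrane MMPs summed to 123 ± 8.36 CPM per kb (control-labelled) and 114 ± 6.70 (mutant-labelled), and the secreted MMPs to 108 ± 6.37 and 124 ± 11.3. Both sums overlapped between the groups, the secreted one only through control-labelled replicate 3 (114 CPM per kb) and mutant-labelled replicate 1 (113).

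Of the inhibitors, *Timp2* had control-labelled values of 183, 191, 178 and 189 CPM and mutant-labelled values of 177, 183, 199.6 and 199 CPM, where replicates 3 and 4 lay above and replicate 1 below all control-labelled values, with a log2 fold change of 0.03 (SE 0.06, 95% confidence interval -0.11 to 0.17, limma adjusted p = 0.859). *Timp3*, which is bound to the matrix and also inhibits ADAM17 and the proteoglycan-cutting ADAMTS enzymes, was at 101, 83.2, 80.2 and 93.2 CPM and at 92.2, 106, 99.9 and 99.3 CPM. Its groups overlapped through control-labelled replicates 1 and 4, with a log2 fold change of 0.16 (SE 0.08, 95% confidence interval -0.02 to 0.33, limma adjusted p = 0.456). *Timp3* shares 21.3% of its exon bases with *Syn3* on the other strand. *Timp1* was at 12.9, 17.3, 16.3 and 16.1 CPM and at 14.4, 16.7, 16.5 and 16.2 CPM, with a log2 fold change of 0.03 (adjusted p = 0.913). *Timp4* has no row in the table.

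The summed MMP level per kb was divided by the summed TIMP level per kb in each library. This ratio of RNA levels was 2.93, 3.12, 3.21 and 2.92 over the control-labelled libraries, against 3.04, 3.16, 3.02 and 2.90 over the mutant-labelled ones, with means of 3.05 ± 0.143 and 3.03 ± 0.108. The mutant-labelled values, apart from the lowest of the 8, fell inside the control-labelled range. RNA levels give neither the amount of protein nor its activation.

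**Figure D2:**
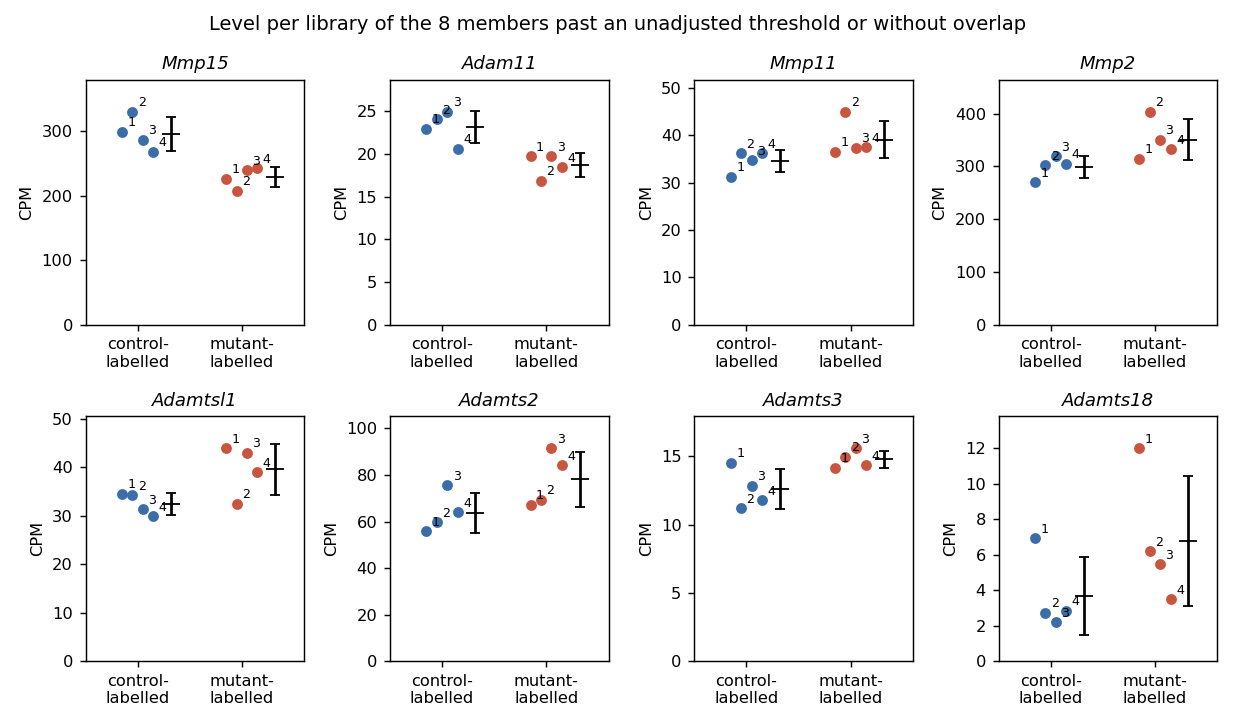
The level in CPM (y axis, from 0) of the 8 genes with an unadjusted limma p under 0.05 or with groups that do not overlap, 1 point per library numbered by replicate, with the mean and SD of each group (n = 4) as a bar. The groups are separate for *Mmp15*, *Adam11* and *Mmp11*, and for *Adamts18* the points of both groups are widely spread.

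Among the ADAM sheddases, *Adam19* and *Adam10* had the highest levels. *Adam10*, which makes the cut in the NOTCH receptor that follows ligand binding, had control-labelled values of 270.3, 228, 222 and 278 CPM and mutant-labelled values of 258, 258, 263 and 283 CPM. The mutant-labelled values all lay between the control-labelled ones except replicate 4, which was the highest of the 8. The means were 249.5 ± 28.7 and 265 ± 11.8 CPM, a log2 fold change of 0.10 (SE 0.08, 95% confidence interval -0.08 to 0.27, limma adjusted p = 0.634, exact permutation p = 0.371), which was -0.0056 once the trend with GC content was removed.

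*Adam17*, or TACE, which releases TNF and several ligands of the EGF receptor, had control-labelled values of 73.3, 69.1, 66.8 and 67.8 CPM and mutant-labelled values of 71.4, 66.8, 61.2 and 72.3 CPM. Its groups overlapped, with a log2 fold change of -0.03 (95% confidence interval -0.19 to 0.13, limma adjusted p = 0.879), which was 0.02 without mutant-labelled replicate 3. *Adam19*, or meltrin beta, which mice need to form heart valves and the ventricular septum, was at 414, 404, 396 and 382 CPM and at 362, 376, 467 and 447 CPM. Mutant-labelled replicates 3 and 4 were the highest of the 8 and replicates 1 and 2 the lowest, so the SD was 52.0 CPM in the mutant-labelled group against 13.6 CPM. On the log2 scale the difference was 0.04 (95% confidence interval -0.15 to 0.23, limma adjusted p = 0.863), and it turned to -0.02 when mutant-labelled replicate 3 was left out and to -8.64e-05 when replicate 4 was.

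Per kb of exon, *Adam19* (56.1 CPM per kb in the control-labelled libraries) and *Adam10* (50.8) were close to each other, followed by *Adam9* (25.5) and *Adam17* (9.68). The 9 sheddases in the table summed to 157 ± 7.38 CPM per kb (control-labelled) and 164 ± 8.88 (mutant-labelled), overlapping, with 5 of 9 log2 fold changes above 0 and none past the unadjusted threshold. Among them, *Adam1a* shares 63.7% of its exon bases with a neighbouring annotated gene on the same strand, so its level of 7.15 and 7.65 CPM is uncertain.

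*Adam11*, *Adam22* and *Adam23* lack a working protease site and act as binding proteins, mainly known from neurons. *Adam11* had control-labelled values of 23.0, 24.1, 24.97 and 20.6 CPM and mutant-labelled values of 19.7, 16.9, 19.8 and 18.4 CPM. All mutant-labelled values lay below all control-labelled ones. The log2 fold change was -0.30 (SE 0.09, 95% confidence interval -0.50 to -0.10, limma unadjusted p = 0.00609, adjusted p = 0.27, exact permutation p = 0.0286). It stayed between -0.35 and -0.25 when 1 library was left out, each time with an unadjusted p under 0.05, and was -0.18 once the trend with GC content was removed. The 4 markers of neural crest, glia and neurons in the table summed to 78.5 to 120.3 CPM (control-labelled) and 61.3 to 78.1 CPM (mutant-labelled), while *Foxd3* has no row. These sums did not overlap either, but the lowest control-labelled and the highest mutant-labelled one were next to each other. Of the 4 markers, 1 was lower at an unadjusted p under 0.05, beside 6.62% of all genes. The part of these markers in the level of *Adam11* was not tested.

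*Adam22* was at 19.8, 16.7, 15.2 and 17.6 CPM and at 18.02, 26.3, 20.2 and 18.8 CPM, the highest in mutant-labelled replicate 2. Its log2 fold change was 0.25 (SE 0.12, 95% confidence interval -0.02 to 0.52, limma adjusted p = 0.44), and 0.13 without that library. *Adam23* had a log2 fold change of 0.07. The 3 genes of this group thus had no common direction.

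The 7 proteoglycan-cutting ADAMTS genes were all in the table. *Adamts1* had control-labelled values of 191, 169, 202 and 195 CPM and mutant-labelled values of 191, 226, 202 and 198 CPM, with a log2 fold change of 0.11 (95% confidence interval -0.05 to 0.27, limma adjusted p = 0.557). *Adamts9*, a versican-cutting enzyme of the heart cushions and valves, was at 119.8, 91.6, 104 and 105 CPM and at 109.7, 118, 117 and 108 CPM, with a log2 fold change of 0.11 (95% confidence interval -0.07 to 0.29, limma adjusted p = 0.579). Both overlapped between the groups. The 2 least abundant of the 7, *Adamts4* and *Adamts20*, had log2 fold changes of -0.04 and 0.16.

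*Adamts5*, *Adamts8* and *Adamts15* varied more. *Adamts5*, which cuts versican in valve cushions as they are shaped, had control-labelled values of 20.1, 16.7, 23.5 and 22.6 CPM and mutant-labelled values of 16.5, 51.8, 31.2 and 23.3 CPM. *Adamts8* was at 31.7, 38.4, 48.2 and 39.8 CPM and at 23.9, 86.3, 55.8 and 44.8 CPM. *Adamts15* was at 63.7, 75.1, 83.3 and 80.4 CPM and at 57.4, 112, 86.3 and 84.1 CPM. In all 3, the mutant-labelled libraries stood in the order 1, 4, 3, 2 from the lowest to the highest, replicate 1 was the lowest of all 8 and replicate 2 the highest, and the control-labelled range lay inside the mutant-labelled one. The order was looked for after these values were seen and is not particular to the 3 genes. It was found in 14 of the 47 (29.8%, beside 8.35% of all genes), among them *Mmp2*, *Timp1*, *Timp3*, *Adamts1* and *Adam22*. With replicate 1 the lowest and replicate 2 the highest of all 8, it was found in 4 of the 47 (8.5%, beside 2.03% of all genes), the fourth being *Adam33*.

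The fitted log2 fold change was 0.44 for *Adamts5* (SE 0.26, 95% confidence interval -0.13 to 1.02, limma adjusted p = 0.503), 0.28 for *Adamts8* (SE 0.29, -0.34 to 0.91, adjusted p = 0.693) and 0.13 for *Adamts15* (SE 0.16, -0.22 to 0.49, adjusted p = 0.743). Each rested on mutant-labelled replicates 1 and 2. Without replicate 2 the values were 0.15, 0.0012 and -0.01, and without replicate 1 they were 0.69, 0.61 and 0.31, with unadjusted p = 0.00817, 0.00876 and 0.0233 in limma. The SD within groups of *Adamts5* was higher than that of 97.6% of all genes, and that of *Adamts8* than 98.3%.

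The summed markers of cushion mesenchyme of the mutant-labelled libraries, in replicate order, came to 1450.5, 2154, 1763 and 1693.5 CPM, and those of epicardium at 291, 491, 352 and 339 CPM, both in the same order of libraries as the 3 genes. Over the control-labelled libraries the sums were 1488, 1534, 1509.9 and 1670.1 CPM and 297, 333, 398 and 336 CPM. The epicardial sum put control-labelled replicate 3 first and replicate 1 last, as *Adamts8* and *Adamts15* did. Of the 6 epicardial markers, 1 was lower and 0 were higher at an unadjusted limma p under 0.05, beside 6.62% and 5.45% of all genes. The summed macrophage markers had the same order of the mutant-labelled libraries, at 43.3, 59.8, 46.0 and 43.9 CPM in replicate order. The order is thus not particular to cushion mesenchyme and epicardium. These orders are a description of 8 libraries and their link was not tested. *Vcan*, which encodes versican, was at 1968 ± 165 and 1953 ± 165 CPM (log2 fold change -0.01, limma adjusted p = 0.964). It had the same order of the mutant-labelled libraries, with replicate 1 the lowest of all 8, but control-labelled replicate 1 was its highest.

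**Figure D3:**
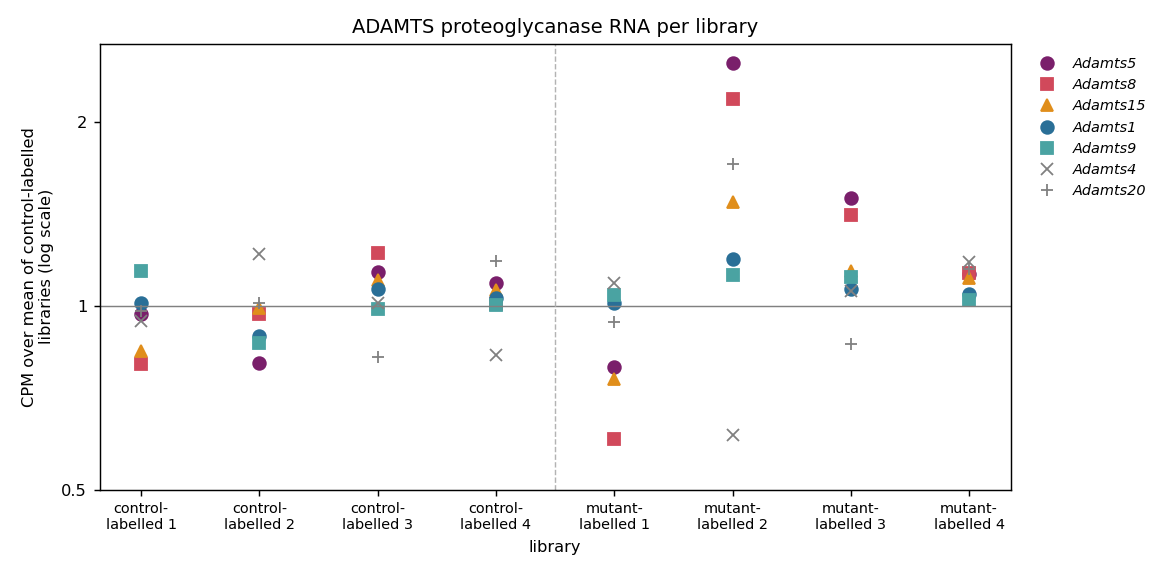
The level of each of the 7 proteoglycan-cutting ADAMTS genes in each library (x axis), divided by the mean of the 4 control-labelled libraries (y axis, log scale), 1 symbol per gene. *Adamts5*, *Adamts8* and *Adamts15* reach 2.501, 2.18 and 1.48 in mutant-labelled replicate 2 and 0.795, 0.606 and 0.759 in mutant-labelled replicate 1, while *Adamts1* and *Adamts9* stay between 0.871 and 1.19 in all libraries, and the low *Adamts20* and *Adamts4* are at 1.71 and 0.614 in mutant-labelled replicate 2.

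These genes lie in pairs on the genome. *Adamts15* (chromosome 9, 30899155 to 30922452, minus strand) and *Adamts8* (30942562 to 30963838, plus strand) point away from each other, 20110 bp apart with 0 listed genes between them. *Adamts1* (chromosome 16, 85793827 to 85803113, minus strand) and *Adamts5* (85856173 to 85901828, minus strand) are 53060 bp apart, also with 0 listed genes between them. *Adamts1* had the order 1, 4, 3, 2 too, with mutant-labelled replicate 2 the highest of all 8, but its lowest value was in control-labelled replicate 2. Per kb of exon, *Adamts1* was the most abundant of the 7, at 35.7 and 38.5 CPM per kb, and *Adamts5* was at 1.92 and 2.85 CPM per kb.

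The procollagen N-proteinases remove the amino-terminal propeptide of fibrillar collagens. *Adamts2* had control-labelled values of 55.8, 59.7, 75.7 and 63.9 CPM and mutant-labelled values of 67.3, 69.4, 91.4 and 84.2 CPM. The highest 2 of the 8 were mutant-labelled, and control-labelled replicate 3 lay above mutant-labelled replicates 1 and 2. On the log2 scale the difference was 0.29 (SE 0.11, 95% confidence interval 0.04 to 0.54, limma unadjusted p = 0.0275, adjusted p = 0.378, exact permutation p = 0.114). It was under the unadjusted threshold in 4 of the 8 fits without a library, with the largest p (0.0972) and a value of 0.21 without mutant-labelled replicate 3.

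*Adamts3*, which also takes part in the activation of VEGF-C, was at 14.5, 11.2, 12.8 and 11.8 CPM and at 14.1, 14.98, 15.6 and 14.4 CPM. Only control-labelled replicate 1 lay within the mutant-labelled range. The log2 fold change was 0.23 (SE 0.10, 95% confidence interval 0.01 to 0.45, limma unadjusted p = 0.042, adjusted p = 0.402, exact permutation p = 0.0857), under the unadjusted threshold in 2 of the 8 fits without a library and at p = 0.11 without control-labelled replicate 2. *Adamts14* had a log2 fold change of -0.03. The 3 genes summed to 10.2 ± 0.807 CPM per kb (control-labelled) and 12.1 ± 1.52 (mutant-labelled), with overlap.

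*Adamts18*, an orphan member with few known substrates, had the largest difference of the 47. It had control-labelled values of 6.95, 2.75, 2.22 and 2.85 CPM and mutant-labelled values of 11.998, 6.22, 5.46 and 3.503 CPM, counted from 29 to 257 reads. The groups overlapped through control-labelled replicate 1, which lay above 3 of the 4 mutant-labelled libraries. This gave a log2 fold change of 0.80 (SE 0.35, 95% confidence interval 0.03 to 1.56, limma unadjusted p = 0.042, adjusted p = 0.402, exact permutation p = 0.171). Without mutant-labelled replicate 1 it was 0.50 with a limma p of 0.141, without control-labelled replicate 1 it was 1.11, and the SD within groups was higher than that of 98.9% of all genes.

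*Adamts10*, which binds fibrillin microfibrils, had control-labelled values of 101, 121, 123 and 111 CPM and mutant-labelled values of 112, 115, 125 and 118 CPM, with a log2 fold change of 0.05 (limma adjusted p = 0.789) that was -0.0048 without control-labelled replicate 1. *Adamts6*, its nearest relative, was at 47.7, 36.6, 52.0 and 47.1 CPM and at 47.9, 59.1, 45.1 and 48.5 CPM, with a log2 fold change of 0.13 (adjusted p = 0.629). Both overlapped between the groups. The other ADAMTS genes, *Adamts7*, *Adamts12*, *Adamts17* and *Adamts19*, lay between -0.05 and 0.20, all with intervals that included 0.

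The ADAMTS-like proteins share the outer domains of the ADAMTS enzymes but have no protease domain. *Adamtsl1*, also called punctin, had control-labelled values of 34.5, 34.2, 31.3 and 29.9 CPM and mutant-labelled values of 43.9, 32.5, 43.0 and 39.0 CPM. Mutant-labelled replicates 1, 3 and 4 lay above all control-labelled values and replicate 2 among them. On the log2 scale the difference was 0.27 (SE 0.10, 95% confidence interval 0.06 to 0.49, limma unadjusted p = 0.0182, adjusted p = 0.345, exact permutation p = 0.0857), under the unadjusted threshold in 5 of the 8 fits without a library. It was 0.36 when mutant-labelled replicate 2 was left out and 0.22, with a limma p of 0.0603, without mutant-labelled replicate 1.

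*Adamtsl2*, which binds fibrillin and the TGF beta binding protein LTBP1, was at 22.9, 26.7, 23.8 and 23.4 CPM and at 27.1, 21.7, 26.7 and 28.3 CPM, with a log2 fold change of 0.09 (limma adjusted p = 0.699). Its groups overlapped. *Adamtsl3*, *Adamtsl4* and *Adamtsl5* had log2 fold changes of 0.12, -0.07 and -0.03. The whole group summed to 10.1 ± 0.725 and 10.7 ± 0.868 CPM per kb.

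**Figure D4:**
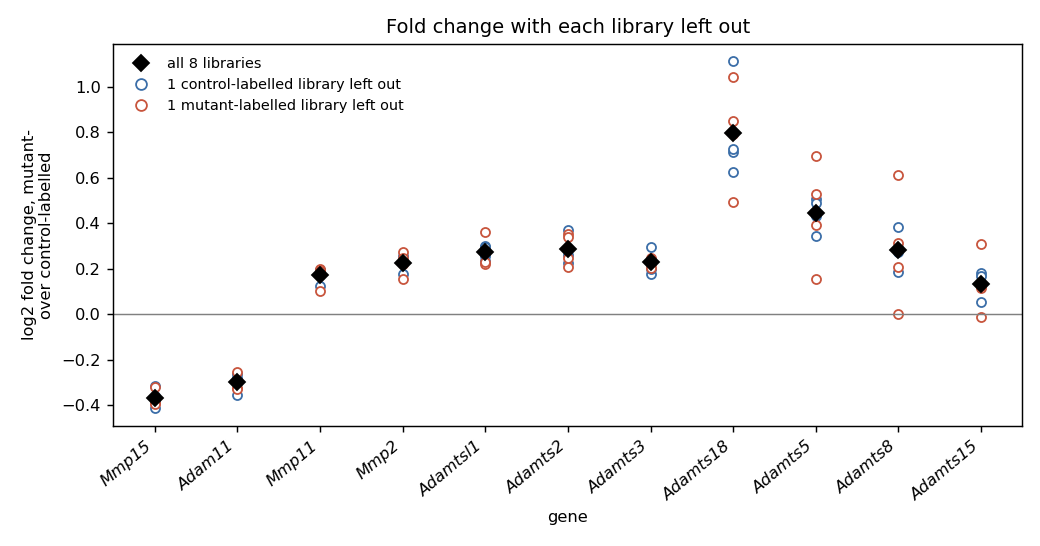
The log2 fold change (y axis) of the 8 genes named by their p-value or separate groups and of *Adamts5*, *Adamts8* and *Adamts15* with all 8 libraries (diamond) and with 1 control-labelled or 1 mutant-labelled library left out (open circles). *Mmp15* stays between -0.41 and -0.31, whereas *Adamts8* moves between 0.00 and 0.61.

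Other genes of the same pathways were read from typed lists. Of the genes that activate or restrain metalloproteases outside these families, 9 of 10 were in the table, 3 were higher at an unadjusted p under 0.05 (*Reck*, *Plaur* and *Plat*) and 1 lower (*Pcsk6*), and none passed the adjusted threshold. Over all genes 5.45% were higher and 6.62% lower at that threshold. The median log2 fold change of the list was 0.11. *Reck*, a membrane-anchored inhibitor of MMPs and of ADAM10, had control-labelled values of 57.0, 49.1, 55.1 and 55.5 CPM and mutant-labelled values of 58.7, 67.3, 63.4 and 60.01 CPM, without overlap. Its log2 fold change was 0.20 (SE 0.07, 95% confidence interval 0.04 to 0.36, limma unadjusted p = 0.0175, adjusted p = 0.338, exact permutation p = 0.0286), under the unadjusted threshold in 7 of 8 fits without a library and at p = 0.0542 without control-labelled replicate 2.

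*Plaur*, the urokinase receptor, was at 5.14 ± 1.007 and 7.41 ± 1.71 CPM (log2 fold change 0.48, limma unadjusted p = 0.0192, adjusted p = 0.35). *Pcsk6*, a proprotein convertase of the furin family, was at 58.8, 52.4, 46.96 and 55.1 CPM and at 40.9, 42.4, 46.4 and 44.6 CPM, without overlap but with control-labelled replicate 3 next to mutant-labelled replicate 3 (-0.28, unadjusted p = 0.00426, adjusted p = 0.258). Of the genes for the trafficking of ADAM10 and ADAM17 (iRhoms and tetraspanins), 8 of 9 were in the table and 0 passed the unadjusted threshold, with a median of -0.01. Of other matrix metalloproteases and their helpers, 7 of 11 were in the table, also with 0 past that threshold and a median of 0.05.

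Of 23 matrix substrates, 21 were in the table, 4 higher (*Hapln1*, *Lama1*, *Fbn1* and *Eln*) and 3 lower (*Col4a1*, *Col4a2* and *Lama4*) at an unadjusted p under 0.05, with a median log2 fold change of -0.00, beside 5.45% and 6.62% of all genes. *Hapln1* is also the marker of cushion mesenchyme counted as higher above, so both counts share this gene. *Col4a1*, *Col4a2* and *Lama4* encode basement membrane proteins, as does *Lama1*, which was among the higher ones. *Col4a1* had control-labelled values of 982, 843, 832 and 747 CPM and mutant-labelled values of 729, 603, 694 and 744 CPM, without overlap (log2 fold change -0.30, limma unadjusted p = 0.00887, adjusted p = 0.298). *Col4a2* was at 550.0 ± 65.7 and 445 ± 20.9 CPM (-0.30, unadjusted p = 0.00521) and *Lama4* at 330.2 ± 30.5 and 283 ± 16.2 CPM (-0.22, unadjusted p = 0.0141).

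Of 19 membrane proteins that are shed by ADAMs, 17 were in the table, 1 higher (*Jag1*) and 2 lower (*Dll4* and *Cdh2*) at an unadjusted p under 0.05, beside 5.45% and 6.62% of all genes, with a median of -0.03. *Jag1*, a NOTCH ligand of the OFT, had control-labelled values of 102, 89.0, 93.9 and 92.7 CPM and mutant-labelled values of 121, 118, 111 and 104 CPM, without overlap. Its log2 fold change was 0.27 (SE 0.07, 95% confidence interval 0.11 to 0.42, limma unadjusted p = 0.00264, adjusted p = 0.24). *Dll4*, the NOTCH ligand of endothelium, was at 12.7 ± 1.97 and 10.3 ± 0.930 CPM (-0.28, unadjusted p = 0.0439), and *Cdh2*, N-cadherin, at 488 ± 28.3 and 442 ± 16.4 CPM (-0.14, unadjusted p = 0.0488).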

How the data were processed

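Poly(A) RNA of E11.5 OFT pools was sequenced as 60 bp single-end reads from a directional library kit. According to the study's methods, the authors trimmed adapters (cutadapt 1.18), quantified genes against GRCm38 and its Ensembl annotation (RSEM 1.2.3), retained a gene if 3 or more samples reached 1 CPM, and applied TMM normalization (edgeR 3.32.1, R 4.0.3). The deposited values are these TMM-normalized CPM, each library has a column, and the number of columns not used is 0. Whether counting used the strand is not given in the sources used here. The values of each column are whole multiples of 1 step (within 0.02), which gave the reads per library.

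Groups came from the genotype labels. All 14608 genes were fitted on log2(CPM + 0.5) by limma 3.58.1 (lmFit, then eBayes with its trend option; R 4.3.3), with genotype as the only term, Benjamini-Hochberg adjustment over all genes and a threshold of 0.05. The scripts were tested on simulated data. Single genes also had the exact permutation test over the 70 relabellings. Levels between genes are CPM per kb of union exon length from GENCODE M21 (GRCm38, the build of the authors). Roles and pathway lists were typed by hand. A few typed genes are not reported here and were left out of the counts. The members and lists were chosen with earlier results of these data known. The genes named with values are those past a threshold or with separate groups, the 2 most abundant of each role and genes known from cushions, NOTCH cleavage or matrix turnover. *Adamts8*, *Adamts15*, *Vcan* and the other genes named only with a fold change or a library order fall outside this rule and were chosen after their values were seen. Samples with the same replicate number did not deviate together (correlation of deviations -0.185 to 0.0349), so the numbers were not treated as pairs. The alternatives were other pseudocounts (0.1 and 1), a mean of at least 5 CPM, median-of-ratios scaling, a replicate block, removal of each library's trend with GC content, and each library left out.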

Additional observations from a re-analysis of the deposited data

Results flagged for a closer look

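Of 54 groups of 4 values (27 named genes), 2 had a value far from the other 3, where chance gives about 1 in 20, here 2.7. *Adamts18* was at 6.95 CPM in control-labelled replicate 1, with a gap to the next value that made up 0.866 of the range of its group. *Mmp11* was at 45.0 CPM in mutant-labelled replicate 2, with a gap of 0.887 of the range. Both were the highest of their group. Leaving out the highest mutant-labelled value cannot make the groups of *Mmp11* overlap, so their separation says nothing about that library. Without it the log2 fold change of *Mmp11* was 0.10.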

How the results depend on the processing

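Over 15 alternatives, no member passed the adjusted threshold, and 2 members stayed lower at an unadjusted p under 0.05 in each. The count of 5 higher members was 8 with the GC trend removed and the replicate block, 7 with the GC trend removed alone, 4 with the replicate block alone, 5 with both pseudocounts, the filter and the other scaling, and 1 to 9 with 1 library left out. The 3 members with separate groups became 4 with the GC trend removed, where *Mmp2* was added. Of 405 values of single genes, 12 changed sign. With the GC trend removed, without or with the replicate block, *Adam10* was at -0.0056 and *Mib1* at -0.0117. With 1 library left out, *Adam17* ran from -0.0609 to 0.0187 (without mutant-labelled replicate 3), *Adam19* from -0.0209 (without mutant-labelled replicate 3; -8.64e-05 without replicate 4) to 0.102, *Adamts10* from -0.00475 (without control-labelled replicate 1) to 0.0892, *Adamts15* from -0.0103 (without mutant-labelled replicate 2) to 0.309 and *Vcan* from -0.0537 to 0.0454 (above 0 without control-labelled replicate 1 or 4 or mutant-labelled replicate 1). The cause was not tested. Whether samples with the same replicate number share a litter or batch is not given, and correlations over so few libraries cannot settle it. With the block, the limma unadjusted p fell for *Adamts18* (0.042 to 0.00155) and *Adamts2* (0.0275 to 0.00372). It rose for *Mmp15* (0.000494 to 0.00403) and *Adamts3* (0.042 to 0.066). Count tests by edgeR (likelihood ratio and quasi-likelihood) and DESeq2 on reads recovered from the CPM were planned and not run. Depth limits the low genes: *Mmp25* rested on as few as 9 reads, *Adamtsl3* on 11 and *Mmp19* on 21, which covers counting error only.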

Other observations

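Mutant-labelled replicate 2 held the highest of the 8 values for 17 of the 47 genes (36.2%) and the lowest for 10 (21.3%), beside 27.3% and 26.2% of all genes. Mutant-labelled replicate 3 held the highest value for 7 (14.9%, beside 5.79% of all genes). A pair of further genes followed, chosen after their values were seen. *Mmp28*, a secreted MMP also called epilysin, was at 12.5 CPM in mutant-labelled replicate 2 and at 22.2 to 29.5 CPM in the other 7 libraries. *Mmp16*, the membrane protease MT3-MMP, was at 20.5 CPM in that library and at 11.3 to 15.4 CPM in the others.

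Of the 83 protein-coding genes of the annotation whose symbols fit the same pattern, 36 have no row in the table. By symbol they are 21 ADAM, 2 ADAMTS, 12 MMP and 1 TIMP gene, while all 7 proteoglycan-cutting ADAMTS and all 3 procollagen N-proteinases have a row.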
